A study of Mus musculus with 6 samples.

Results

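Contacts between pairs of sites 500 kb or more apart were examined by capture Hi-C at the X-inactivation centre of the mouse, the region around Xist on the X chromosome. In capture Hi-C, nearby DNA ends are ligated in the nucleus, ligation products of a region are pulled out with probes, and read pairs are counted for pairs of bins. Each map covered chrX:100215001-101265000 (mm9) in 210 bins of 5 kb, and a pair belonged to the set when its bin starts differed by at least 500 kb. By that rule 6105 of the 21945 pairs of different bins (27.8%) were members in each of the 7 maps. The region was split at 100670000, a position inside Xist, and 5915 members (96.9%) joined a bin on the left of it to a bin on the right. The other 190 members had both bins on the right and were at most 590 kb apart, and 0 members lay wholly on the left.

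The cells were female mouse embryonic stem cells from a cross of CAST/EiJ and 129S1. They were undifferentiated and grown on feeder cells (day 0), differentiated as embryoid bodies for 4 days, or differentiated for 7 days. Cells of day 0 and day 4 received no oligonucleotide. Cells of day 7 received a locked nucleic acid (LNA), scrambled in the control and directed against Jpx RNA in the depleted cells, and were collected 8 hours later. Of the 6 libraries, day 0 and day 4 had 1 each, and control and Jpx-depleted cells of day 7 had 2 each. Maps of all reads were used for day 0, day 4 and day 7 control, and the 4 allelic maps gave the alleles named cas and mus in control and in depleted cells. Each group is therefore 1 map with no replicate map, no test between conditions was made, and the intervals printed here (95%) cover the error of counting contacts only. Day and transfection cannot be told apart where day 7 is set against day 0 or day 4, the comparisons of day 4 and of day 7 with day 0 share the day 0 map, and the day 7 map of all reads holds reads that also enter the control allelic maps. The maps hold no RNA levels, so neither the cell type nor the loss of Jpx RNA was checked here.

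In a Hi-C map, contact between sites falls as their separation along the chromosome grows, and the slope of that fall on logarithmic axes describes how the fibre is folded. Contact is also divided into topologically associating domains, within which sites meet more often than across their border. In the X-inactivation centre such a border lies between the side of Xist and Jpx and the side of Tsix, the antisense RNA that represses Xist. Random ligation of DNA fragments that were not in contact adds an even background, which weighs most where true contact is rarest, at long separations. Xist is the RNA that coats and silences the inactive X, Jpx and Ftx are noncoding RNA genes on the right that promote Xist expression, and Rlim, near the right end, encodes a ubiquitin ligase that activates Xist.

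The sequences shown here are capture probes, each extended to the next MboI site to its left or right. All but the last 2 lie in bins that carried long-range signal described below. Capitals mark GATC, the site at which MboI cut the DNA before ligation. They are read on the plus strand of mm9 and lie at chrX:100667484-100667633 (in an intron of Xist and Tsix, in the bin left of the split), chrX:101176811-101176968 (upstream of the Rlim promoter, in no annotated gene), chrX:100607377-100607566 (upstream of Tsx, in no annotated gene), chrX:100489128-100489333 (in an intron of 4930519F16Rik) and chrX:101040666-101040790 (in no annotated gene). The last 2 stand for the ends of the pair of regions whose contact differed most between day 4 and day 0. They are the probes nearest the centres of those regions, and their own bins were not read.
Xist body: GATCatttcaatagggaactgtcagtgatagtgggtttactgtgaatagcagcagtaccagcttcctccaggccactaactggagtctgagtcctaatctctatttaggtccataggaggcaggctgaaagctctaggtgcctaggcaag
upstream of Rlim: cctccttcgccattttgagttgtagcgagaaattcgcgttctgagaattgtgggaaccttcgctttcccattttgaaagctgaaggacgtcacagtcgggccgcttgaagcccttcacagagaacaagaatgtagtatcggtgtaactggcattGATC
upstream of Tsx: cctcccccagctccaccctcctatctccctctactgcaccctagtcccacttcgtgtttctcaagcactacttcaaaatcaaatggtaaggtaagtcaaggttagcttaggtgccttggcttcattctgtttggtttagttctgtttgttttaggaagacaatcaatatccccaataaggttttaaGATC
left end of the rectangle: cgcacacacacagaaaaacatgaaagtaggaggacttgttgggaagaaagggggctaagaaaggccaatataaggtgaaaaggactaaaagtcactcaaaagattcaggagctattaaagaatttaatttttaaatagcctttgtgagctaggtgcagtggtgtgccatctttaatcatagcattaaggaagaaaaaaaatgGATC
right end of the rectangle: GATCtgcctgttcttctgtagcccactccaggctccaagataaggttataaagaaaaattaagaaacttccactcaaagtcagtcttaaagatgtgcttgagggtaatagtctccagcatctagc

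Depth was alike in the maps of all reads, with 88600 to 91391 contacts between different bins, and lower in the allelic maps, with 23705 to 37347. Bins with under 0.25 of the median bin total were left out, which kept 5826 members in the maps of all reads and 5726 in the allelic maps. The members were sparse: 54.3% to 65.4% of them held 0 contacts in the maps of all reads and 77.4% to 80.8% in the allelic maps, and a pair at 0 allows up to 3 contacts. Values are therefore given for sums over many pairs.

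Long-range contacts took a larger share of the signal after differentiation than before it. Signal is the corrected contact value as deposited, and the share is taken over all pairs of different bins. At day 0 the members held 4.67% of the signal (4.50 to 4.84, from 3292 contacts). At day 4 they held 7.22% (7.01 to 7.44, from 4720 contacts). At day 7 they held 6.79% (6.59 to 6.99, from 4658 contacts). The day 0 map was lowest, and its interval met neither of the others. Day 4 exceeded day 0 by a log2 ratio of 0.63 (0.56 to 0.70), a 1.55-fold difference or 2.56 percentage points. Day 7 exceeded day 0 by 0.54 (0.47 to 0.61). Day 7 was slightly lower than day 4, at a log2 ratio of -0.09 (-0.15 to -0.03), but with contacts in place of signal that ratio was -0.05, with an interval (-0.10 to 0.01) that held 0. As a share of recovered contacts, which carry no correction, members made up 3.60% of contacts at day 0, 5.33% at day 4 and 5.16% at day 7.

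Between the alleles at day 7, the mus map held the larger share in control and in depleted cells. In control cells the members held 6.15% of the signal on cas (5.85 to 6.46, from 1708 contacts) and 7.63% on mus (7.24 to 8.02, from 1547 contacts). In Jpx-depleted cells they held 5.86% on cas (5.54 to 6.17, from 1417 contacts) and 7.76% on mus (7.33 to 8.19, from 1365 contacts). The log2 ratio of mus over cas was 0.31 (0.21 to 0.41) in control and 0.41 (0.29 to 0.52) in depleted cells. The labels do not say which allele was the inactive one. Depletion of Jpx came with a log2 ratio of -0.07 (-0.18 to 0.03) on cas and 0.02 (-0.08 to 0.13) on mus, and the difference between those effects was 0.10 (-0.06 to 0.25). All 3 intervals held 0, and at this depth a change of the long-range share by more than 0.18 on the log2 scale in either direction lies outside both intervals.

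**Figure D1:**
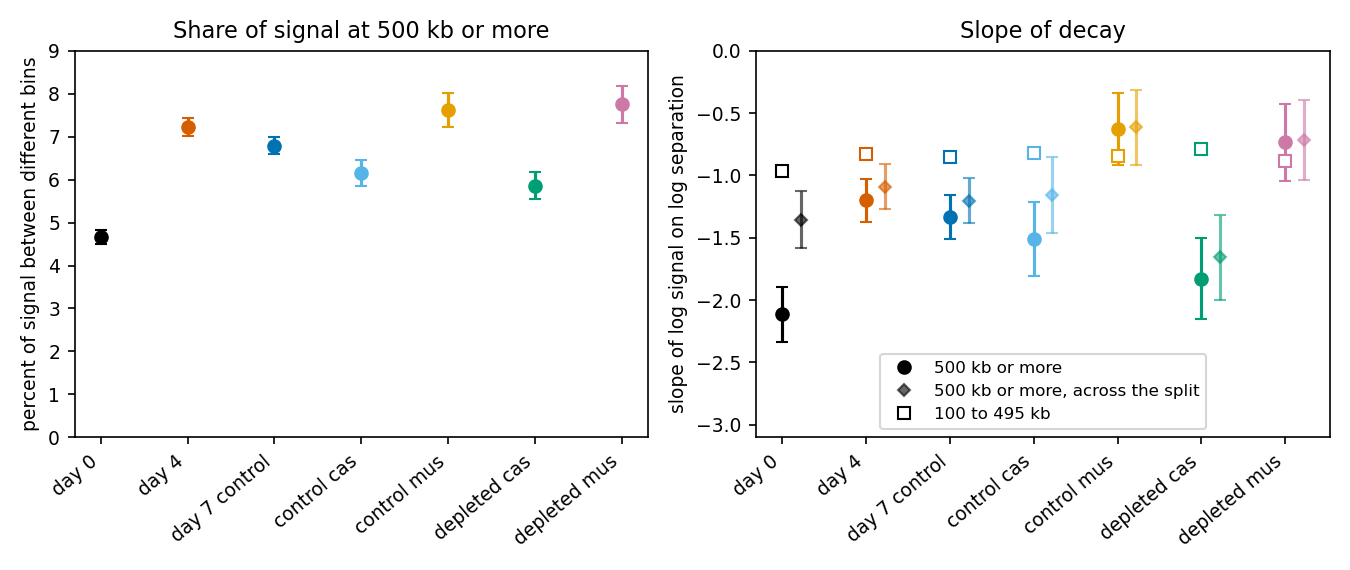
Left, percent of the signal between different bins that fell at 500 kb or more, for each of the 7 maps. Right, the slope of log signal on log separation at 500 kb or more (filled circles), over the members that cross the split (diamonds) and at the middle range, from 100 kb to just under 500 kb (open squares). Bars are 95% counting intervals. Day 0 has the lowest share and the steepest filled circle. Its diamond, at -1.35, lies nearer those of day 4 and day 7, and the steepest diamond is that of depleted cas, at -1.66.

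The higher share at day 4 was spread over the whole long range. In windows of 50 kb of separation, the share of signal per pair was higher at day 4 than at day 0 in 11 of 11 windows from 500 kb on, by 0.25 to 1.66 on the log2 scale, and in 9 of 10 shorter windows, by at most 0.35. Of the 11 long windows, 10 had intervals that left out 0, and the ratio of 1.66 rests on 14 and 4 contacts. At day 0 the mean signal per pair was 2.38 in the 50 kb window that starts at 450 kb, just outside the set, and 2.31 in the window that starts at 500 kb, just inside it. At day 4 these means were 3.06 and 2.78.
On the alleles the windows changed sign near 500 kb. In control cells mus was above cas in 11 of 11 windows from 500 kb on (0.09 to 1.13) and in 1 of 10 shorter windows, the one under 50 kb. Of those 11 long windows, 4 had intervals that left out 0, and the ratio of 1.13 rests on 19 contacts on mus and 7 on cas. In the windows that start at 150, 200 and 250 kb the log2 ratio of mus over cas was -0.21 to -0.25. The same held in depleted cells, with 11 of 11 windows from 500 kb on above 0, 5 of them with intervals that left out 0, and 1 of 10 shorter windows. For depletion over control, 4 of 11 long windows were above 0 on cas and 7 of 11 on mus.

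**Figure D2:**
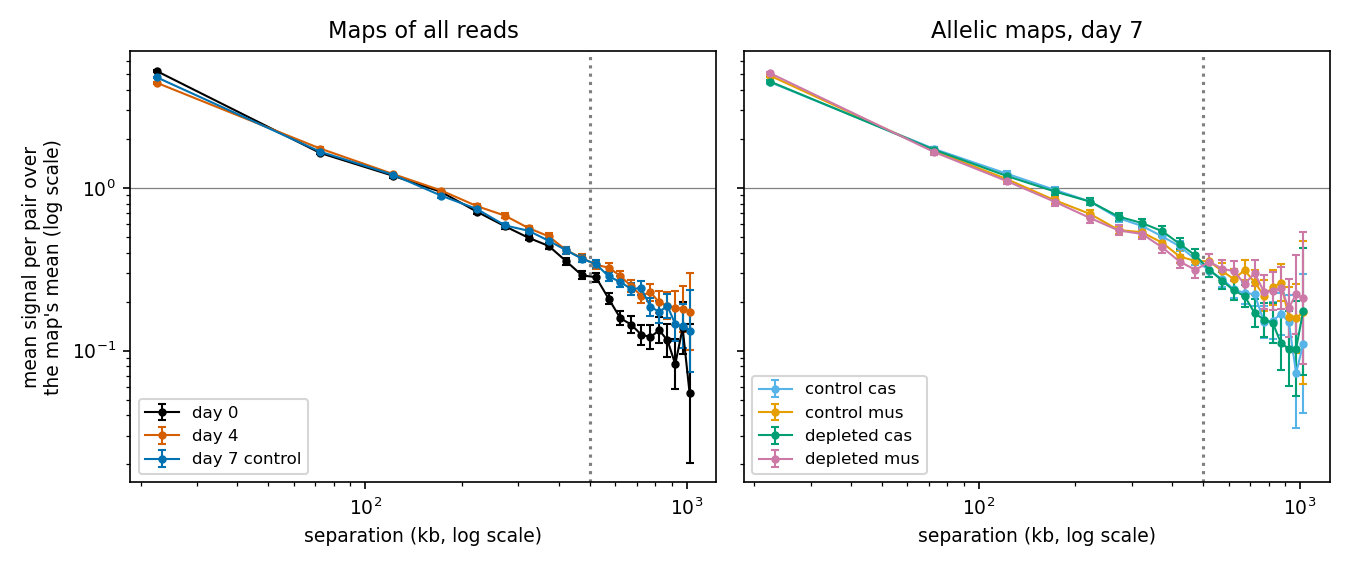
Mean signal per pair over the mean of its map, against separation in kb, both on log axes, in windows of 50 kb, with 95% counting intervals. The dotted line stands at 500 kb and the horizontal line at the map's mean. Day 0 falls away from day 4 and day 7 beyond the dotted line, where it lies below them in every window. Mus lies above cas there and below it in the windows that start at 150, 200 and 250 kb.

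Within the set, signal fell with separation in every map, and with all members counted the fall was steepest at day 0. Day 0 had a slope of -2.11 (-2.33 to -1.89). Day 4 had one of -1.2 (-1.38 to -1.02), and day 7 one of -1.34 (-1.51 to -1.16). From 100 kb to just under 500 kb the slopes were closer together, at -0.96, -0.83 and -0.85. Whether decay was steeper beyond 500 kb than before it turned with the correction of the bins at day 4 and day 7. In the signal as deposited, the long-range slope minus the middle-range slope was -1.15 at day 0, -0.37 at day 4 and -0.48 at day 7, and each interval left out 0. With the bins balanced to equal totals, where the middle-range fit was added after the values were seen, the long-range slope was -1.70 (-1.93 to -1.48) at day 0, and minus the middle-range slope it was -0.76 (-0.99 to -0.54). At day 4 the balanced slope was -0.64 (-0.81 to -0.46) against -0.79 at middle range, and at day 7 it was -0.87 (-1.05 to -0.69) against -0.82, and neither difference left out 0. The slope was shallower than day 0 by 0.91 (0.63 to 1.19) at day 4 and by 0.78 (0.50 to 1.06) at day 7.
This difference lay mostly in the 190 pairs wholly right of the split, which are all 590 kb apart or less. Without them, in a comparison added after the values were seen, the slope at day 0 was -1.35 (-1.58 to -1.12), at day 4 -1.09 and at day 7 -1.2. The differences from day 0 became 0.26 (-0.03 to 0.55) and 0.15 (-0.14 to 0.45), whose intervals held 0. From 600 kb on, where none of the 190 pairs lies, they were -0.19 (-0.71 to 0.33) and -0.37 (-0.89 to 0.15), since the slopes there were -0.88 at day 0, -1.07 at day 4 and -1.25 at day 7. The order of the 7 maps therefore rests on these pairs: depleted cas was steepest across the split, at -1.66, and from 600 kb on, at -1.80. The rise in share did not rest on these pairs: across the split alone, day 4 exceeded day 0 by 0.75 (0.68 to 0.82) on the log2 scale.

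The alleles also differed in slope. In control cells the slope was -1.51 (-1.80 to -1.22) on cas and -0.63 (-0.92 to -0.34) on mus, a difference of 0.88 (0.47 to 1.30). In depleted cells it was -1.83 (-2.16 to -1.5) on cas and -0.74 (-1.05 to -0.42) on mus, a difference of 1.09 (0.64 to 1.54). Across the split alone the slopes were -1.16 on cas and -0.62 on mus in control cells, and -1.66 and -0.72 in depleted cells, with differences of 0.54 (0.12 to 0.97) and 0.94 (0.47 to 1.41). From 600 kb on the control difference was 0.72, with an interval (-0.03 to 1.47) that held 0. At shorter separations, from 100 kb to just under 500 kb, the slopes lay between -0.79 and -0.88 in all 4 maps. On mus the difference between the long-range and the middle-range slope had an interval that held 0 in both cell groups, and on cas that difference was -0.69 (-0.98 to -0.39) in control and -1.04 (-1.37 to -0.71) in depleted cells. With balanced bins, the long-range slopes were -0.99 and -1.34 on cas and -0.42 and -0.58 on mus. Depleted cas was then still steeper than at middle range, control cas was not beyond counting error, and control mus was shallower, by 0.39 (0.10 to 0.69).
Jpx depletion came with a slope difference of -0.32 (-0.76 to 0.12) on cas and -0.11 (-0.53 to 0.32) on mus. The difference between those effects was 0.21 (-0.40 to 0.82). Across the split alone, the difference on cas was -0.50 and its interval (-0.95 to -0.04) no longer held 0, while that on mus was -0.10 and the difference between alleles 0.39 (-0.24 to 1.03).

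Which bins carried the long-range signal was read from relative contact, the signal summed over a set of pairs divided by the mean of the map at the same separations, so that 1 is the mean. The left side had 9 blocks of 50 kb and the right side 11. On the left at day 0, the profile was a trough between raised ends. The outermost block, chrX:100215001-100265000, stood at 1.22 (1.12 to 1.33). The block next to the split, chrX:100615001-100665000, which holds parts of Tsx, Tsix and Xist, stood at 1.47 (1.32 to 1.63). Between them the block with Cdx4, a homeobox gene, and the start of Chic1 (chrX:100515001-100565000) was lowest, at 0.522 (0.446 to 0.611).

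At day 4 the trough was filled and the outer end was lower, both relative to the mean at equal separation. The 4 blocks from 100415001 to 100615000 went from 0.522 to 0.698 at day 0 to 0.945 to 1.25 at day 4. Their log2 ratios of day 4 over day 0 were 0.76, 0.79, 0.94 and 0.84, and each interval was above 0. In the 2 outermost blocks relative contact fell by 0.47 and by 0.54 on the log2 scale, from 1.22 to 0.878 and from 0.999 to 0.689. Their contacts rose, from 414 to 452 and from 334 to 364, but relative contact does not hold the rise of the whole range. The block beside the split, at 1.47 and 1.5, did not differ beyond counting error. At day 7 the 4 blocks stood at 0.954 to 1.12, and no left block differed between day 7 and day 4 beyond counting error. Balanced to equal bin totals, the same 6 left blocks kept these directions, with ratios of 0.79, 0.88, 0.91 and 0.96 in the trough and -0.35 and -0.62 at the outer end. The mean at equal separation also takes in the 190 pairs wholly right of the split, up to 590 kb apart. They stood at 2.50 at day 0 and 1.31 at day 4, which lowers values across the split more at day 0. All members across the split together stood at 0.918 and 0.987. How much of the rise in the trough comes from this was not tested.

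On the right, the block at the Rlim promoter, chrX:101165001-101215000, was highest in 6 of the 7 maps, with 1.31 (1.21 to 1.41) for day 0, 1.42 (1.34 to 1.51) for day 4, and 1.26 (1.18 to 1.35) for day 7. In depleted mus the highest right block was chrX:100965001-101015000, at 1.19. The height of the Rlim block depended on the correction of the bins: balanced to equal bin totals it was 1.02 at day 0 and 1.14 at day 4. Blocks near the split were lower at day 4 than at day 0, with 0.482 against 0.873 in chrX:100765001-100815000 and 0.583 against 0.957 in chrX:100815001-100865000, both inside or beside Ftx. These right blocks rest on few contacts, 60 and 109 at day 4. Which right blocks rose or fell by day turned with the smallest separation counted, so no order of the right side is drawn.

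**Figure D3:**
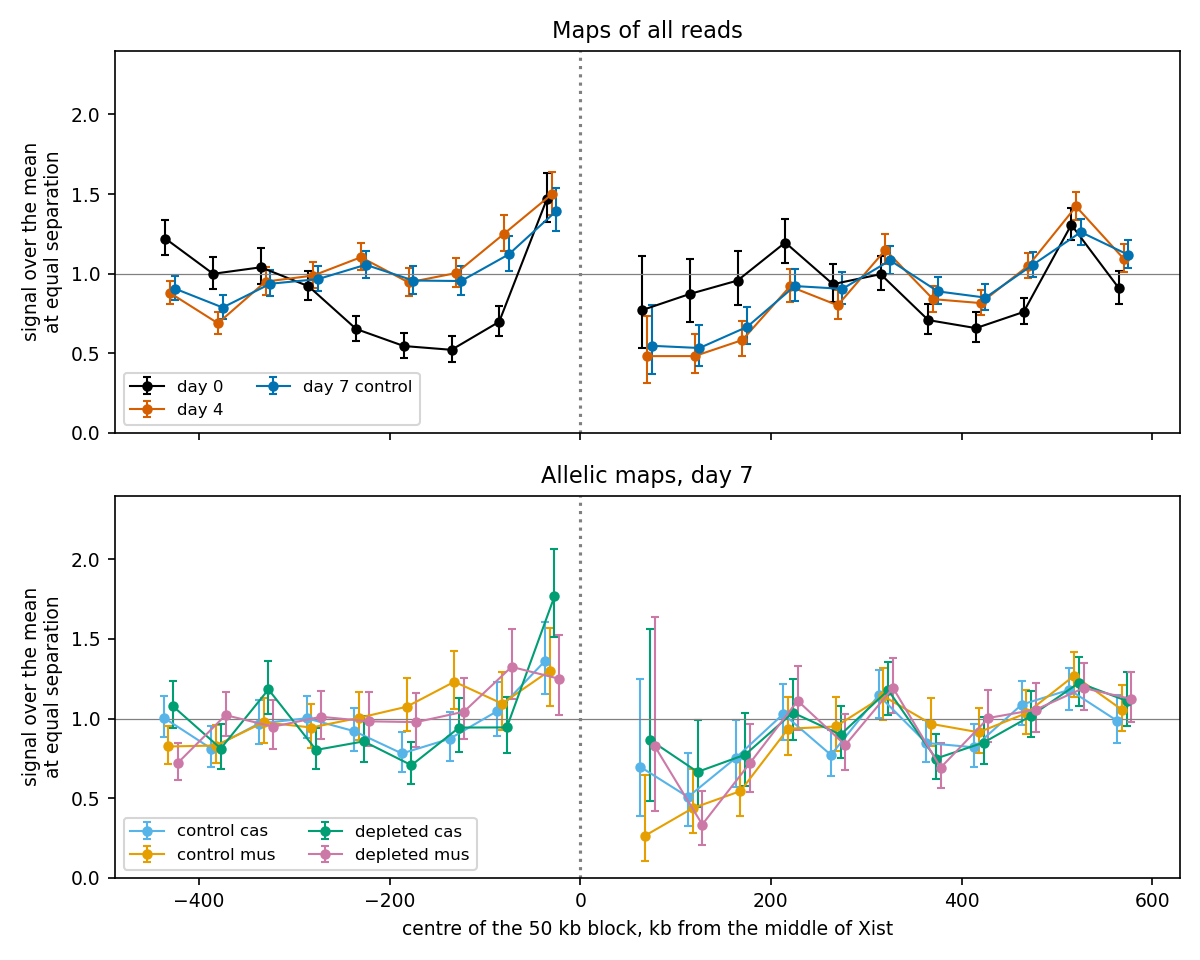
Signal at 500 kb or more over the mean at equal separation for each 50 kb block, by distance of its centre from the middle of Xist in kb, with 95% counting intervals; 1 is the mean of the map. On the left, the day 0 trough between about 0.52 and 0.70 is absent at day 4 and day 7. The lower panel shows the 4 allelic maps of day 7. In depleted cas, the 5 blocks from 100365001 to 100615000 lie at 0.707 to 0.945, between blocks at 1.18 and 1.77. Its highest left block is 2.5 times its lowest, against 2.81 times at day 0 and 1.58 to 1.83 times in the other allelic maps.

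The 5 kb bin beside the split, chrX:100665001-100670000, in the body of Xist, had the highest long-range contact of the 88 left bins in all 3 maps of all reads. Its relative contact was 4.51 at day 0 (128 contacts), 2.77 at day 4 (92 contacts) and 3.83 at day 7 (122 contacts). In control cells it was 3.00 on cas (39 contacts) and 2.49 on mus (23 contacts). In depleted cells it was 4.39 on cas (48 contacts) and 2.51 on mus (22 contacts). It was lower at day 4 than at day 0, by -0.70 (-1.10 to -0.31), and higher at day 7 than at day 4, by 0.47 (0.07 to 0.87). After balancing to equal bin totals, its relative contact was 2.90 at day 0 and 2.77 at day 7, and the log2 ratio of day 4 over day 0 was -0.57 (-1.03 to -0.11). Its pairs with the Rlim promoter bins show what the sums are made of: with chrX:101180001-101185000 it had 20 contacts at day 0, where the mean at that separation gave 2.11, and 7 at day 4, where it gave 2.06. With chrX:101175001-101180000 it had 16 and 5 contacts. The Tsx-side bin chrX:100605001-100610000, shown as upstream of Tsx, was among the 3 highest left bins at day 4, at 2.20 (115 contacts). These bin pairs were picked after their values were seen.

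A bin's place moved with its contacts at all separations, which include the long-range ones, on the left at day 4 and day 7 and on the right at day 0. The correlation was weak on the right at day 4 and day 7. By rank it was near 0 on the left at day 0. Over the 88 left bins, relative long-range contact correlated with the bin's contacts at all separations at r = 0.33 at day 0, 0.87 at day 4 and 0.82 at day 7. By rank, Spearman's rho was 0.08, 0.77 and 0.77. Over the 100 right bins the Pearson correlations were 0.62, 0.25 and 0.29. With the number of probes in the bin they were 0.40, 0.57 and 0.59 on the left and 0.61, 0.38 and 0.43 on the right, and with the number of MboI sites between -0.01 and 0.05 over both sides. The bins of a map share its library and its correction, so these correlations are descriptions. The part of capture in the profiles was not tested beyond the balanced values given with them.

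The 190 members wholly right of the split joined the region from the 5′ part of Xist to chrX:100765000 with the Rlim end. Unlike the members across the split, they were richer in contacts at day 0 than later. Their relative contact was 2.50 (2.32 to 2.70) at day 0 from 510 contacts, 1.31 (1.18 to 1.46) at day 4 from 301 contacts and 1.36 (1.23 to 1.51) at day 7 from 330 contacts. Against day 0, the log2 ratio of day 4 was -0.93 (-1.12 to -0.74) and that of day 7 -0.88 (-1.06 to -0.69). Members across the split held 87.1% of the long-range signal at day 0, 94.6% at day 4 and 94.1% at day 7.
On the control alleles their relative contact was 1.87 on cas (178 contacts) and 1.08 on mus (77 contacts), a log2 ratio of -0.79 (-1.16 to -0.41). In depleted cells it was 1.31 on cas (113 contacts) and 1.07 on mus (72 contacts), a log2 ratio of -0.29 (-0.72 to 0.13). Depletion thus came with a ratio of -0.52 (-0.85 to -0.19) on cas and -0.02 (-0.48 to 0.44) on mus. The effects on the alleles were not shown to differ, since their difference was 0.50 (-0.07 to 1.06).

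By the left end of the pair, a division made after the values were seen, all 3 groups stood higher at day 0 than later. Pairs from the 5′ part of Xist (37 pairs from chrX:100670001-100680000) stood at 3.59 at day 0, 2.27 at day 4 and 2.4 at day 7. Pairs from the Xist start to the end of Jpx (75 pairs from chrX:100680001-100705000) stood at 2.85, 1.24 and 1.30. Pairs further right (78 pairs) stood at 1.77, 0.924 and 0.970. The log2 ratios of day 4 over day 0 were -0.66, -1.19 and -0.94 in that order, and each interval left out 0. In control cells cas exceeded mus in the first group, 3.64 (69 contacts) against 1.32 (20 contacts), and in the second, 2.03 (76 contacts) against 0.740 (26 contacts), and did not in the third, 0.928 against 1.29. With Jpx depletion the second group on mus went from 0.740 to 1.32 (39 contacts), a log2 ratio of 0.83 (0.10 to 1.57). The first group on cas went from 3.64 to 2.4 (39 contacts), a ratio of -0.60 (-1.17 to -0.02). The other 4 ratios had intervals that held 0. On cas the second group went from 2.03 to 1.49, a ratio of -0.45 (-0.96 to 0.07), and the third from 0.928 to 0.673, a ratio of -0.46 (-1.29 to 0.37). On mus the first group had a ratio of -0.09 (-1.03 to 0.86), and the third went from 1.29 (31 contacts) to 0.742 (16 contacts), a ratio of -0.79 (-1.66 to 0.08). The ratio was thus below 0 in all 3 groups on cas, and on mus it was above 0 in the second and below 0 in the others.

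Pairs of promoters were then compared by gene. Of the named genes, 6 had pairs with Rlim at 500 kb or more, and each was read over 10 kb to each side of both promoters. Xist and Rlim, whose promoters are 498067 bp apart, had 15 of 25 bin pairs in the set. Their relative contact was 5.88 (5.07 to 6.83) at day 0 from 163 contacts. It was 3.41 (2.79 to 4.16) at day 4 from 93 contacts and 3.09 (2.52 to 3.78) at day 7 from 92 contacts. The day 0 interval lay above the others, and the log2 ratio against it was -0.79 (-1.15 to -0.43) for day 4, then -0.93 (-1.29 to -0.57) for day 7. On cas it was 4.49 in control (44 contacts) and 3.24 in depleted cells (31 contacts). On mus it was 2.20 in control (18 contacts) and 2.39 in depleted cells (16 contacts). The control ratio of mus over cas was -1.03 (-1.82 to -0.24). Depletion came with -0.47 (-1.13 to 0.18) on cas and 0.12 (-0.86 to 1.10) on mus.

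The other 5 promoters lie on the left, across the split from Rlim, and their pairs were nearer to the mean. For Tsix, the antisense repressor of Xist, relative contact with Rlim was 1.23 at day 0, 1.08 at day 4 and 1.26 at day 7. For Tsx, a noncoding gene beside it, it was 1.5 (43 contacts), 1.79 (71 contacts) and 1.09 (37 contacts), with a log2 ratio of -0.71 (-1.30 to -0.13) for day 7 over day 4. Over 20 kb to each side that Tsx ratio was -0.27 and its interval held 0. For Chic1 the values were 1.37, 1.71 and 1.12, and for Cdx4 1.65, 1.54 and 1.57, above 1 at each day with intervals that left out 1. For Nap1l2, which encodes a nucleosome assembly protein and lies farthest from Rlim, they were 0.853, 0.956 and 1.39. In the allelic maps these 5 pairs rested on 2 to 16 contacts, and each of their 20 ratios between allelic maps had an interval that held 0. Other settings moved some of these ratios past 0. Over 20 kb to each side, Cdx4 with Rlim was higher on mus than on cas in control cells, at 1.43 (0.53 to 2.34), and higher on cas with Jpx depletion, at 1.01 (0.03 to 1.99). Balanced to equal bin totals, Nap1l2 with Rlim was higher on mus than on cas in depleted cells, at 3.24 (0.79 to 5.69), and lower on cas with depletion, at -2.50 (-4.94 to -0.06). In the maps of all reads, the ratio of Chic1 with Rlim for day 4 over day 0 was 0.84 (0.32 to 1.35) over 20 kb to each side. With recovered contacts, Tsx with Rlim stood at -0.69 (-1.30 to -0.08) for day 7 over day 0.

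**Figure D4:**
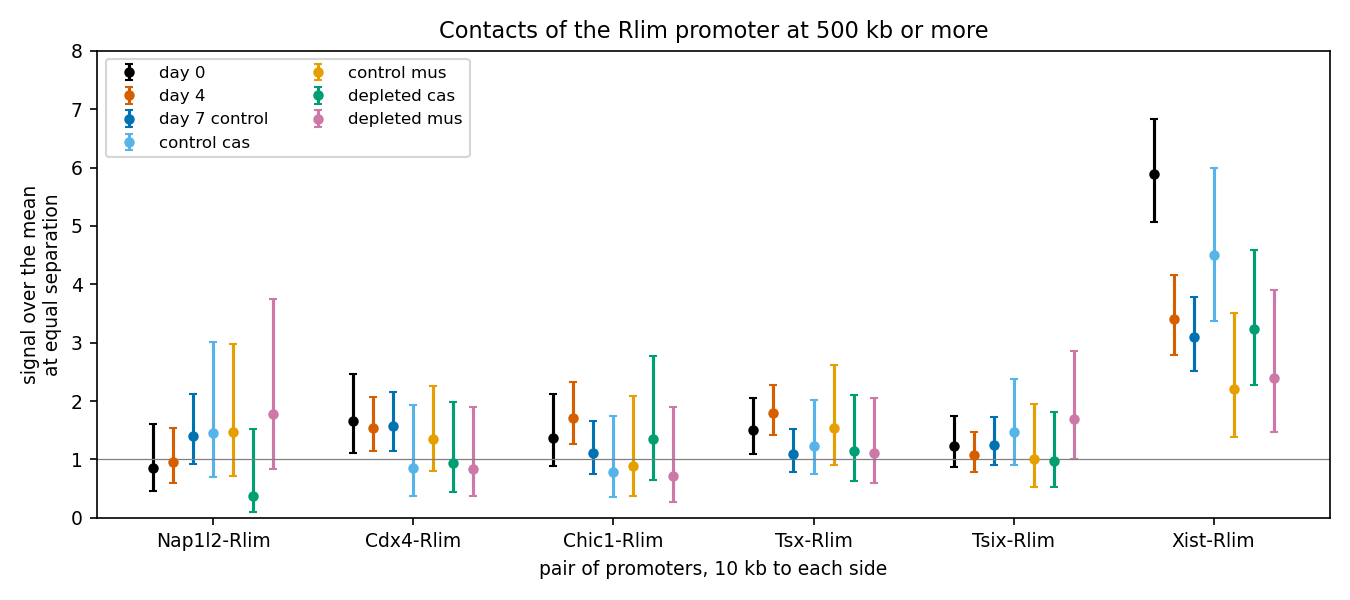
Signal over the mean at equal separation between the Rlim promoter and 6 other promoters, over 10 kb to each side and bin pairs at 500 kb or more, in each of the 7 maps, with 95% counting intervals. The Xist-Rlim pair is highest in every map, from 2.20 in control mus to 5.88 at day 0, and the other 5 pairs range from 0.381 (Nap1l2 in depleted cas) to 1.79 (Tsx at day 4).

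Differences between maps were then mapped as rectangles, each a 50 kb block against another 50 kb block. Of the 190 rectangles with separations of 50 kb or more, 55 had all their bin pairs in the set. A rectangle was called where its relative contact differed by over 1.5-fold and it held at least 10 contacts in both maps together. For day 4 over day 0, 13 of the 55 were higher and 9 lower, where over all 190 rectangles 23.2% were higher and 9.47% lower. Either way that makes 22 of 55, against 32.6% of all. The median log2 ratio was 0.07 in the 55 and -0.0027 in all. For day 7 over day 0, 12 were higher and 9 lower, against 25.3% and 10.5% of all (21 either way, against 35.8%). The count of higher rectangles at long range was near the background in these comparisons, and that of lower ones above it. Relative contact is scaled at each separation, so it does not hold the rise of the whole range. For day 7 over day 4, 3 were higher and 2 lower (2.11% and 1.05% of all, 3.16% either way).

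The long-range rectangles followed their left block, in a grouping made after the values were seen. With a left block between 100415001 and 100615000, from left of Cdx4 to Tsx, 18 of 18 rectangles were above 0 for day 4 over day 0, 13 of them past the fold, with a median of 0.73. For day 7 over day 0 it was 18 of 18 and 12, with a median of 0.64. These rectangles are made of bin pairs already summed in those left blocks, so the counts restate the block ratios. For day 4 over day 0, 4 of 19 rectangles were above 0 with left blocks from 100215001 to 100315000. The counts were 7 of 15 from 100315001 to 100415000 and 0 of 3 from 100615001 to 100715000. With a left block between 100215001 and 100315000, 8 of 19 were past the fold downward and 0 upward, with a median of -0.42 at day 4. The rectangle of chrX:100465001-100515000 with chrX:101015001-101065000, whose ends are printed above, stood at 0.266 at day 0 (22 contacts) and 0.758 at day 4 (79 contacts). Its log2 ratio was 1.51 (0.81 to 2.21), the highest of that comparison, and 1.71 (1.02 to 2.41) for day 7 over day 0. With the same right block, chrX:100265001-100315000 went the other way, from 1.2 (31 contacts) to 0.499 (25 contacts), a ratio of -1.26 (-2.04 to -0.48).

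On the alleles, 6 of 54 long-range rectangles were higher and 3 lower for mus over cas in control cells, where 11.6% and 8.99% of all rectangles were (9 either way, against 20.6%). In depleted cells 11 of 55 were higher and 12 lower, against 16.3% and 15.3% (23 either way, against 31.6%). Intervals left out 0 in 3 of those 11 and 4 of those 12, and in the rectangles outside the set in 20 of 20 and 13 of 17. The rectangle of the outermost left block with chrX:101115001-101165000, in which part of Rlim lies, was the lowest in control cells, with 2.23 on cas (27 contacts) and 0.977 on mus (9 contacts), a log2 ratio of -1.19 (-2.15 to -0.22). Its counterpart, chrX:100465001-100515000 with chrX:101215001-101265000, was the highest, with 0.519 on cas (9 contacts) and 1.21 on mus (20 contacts), a ratio of 1.22 (0.09 to 2.35). Among left blocks, chrX:100465001-100515000 was higher on mus in control (0.46, 0.14 to 0.78) and in depleted cells (0.47, 0.10 to 0.84), and chrX:100215001-100265000 lower in both, at -0.29 (-0.56 to -0.01) and -0.58 (-0.88 to -0.27). The block of Cdx4 and Chic1, chrX:100515001-100565000, was higher on mus in control cells (0.50, 0.17 to 0.83), where it was the most different left block, and its ratio in depleted cells was 0.14 (-0.23 to 0.52). In 5 left blocks the interval held 0 in control cells and left it out in depleted cells. The blocks that start at 100265001, 100365001 and 100565001 were higher on mus there, at 0.33, 0.33 and 0.49, and those that start at 100315001 and 100615001 were lower, at -0.32 and -0.50. From control to depleted cells the ratio changed by 0.30, 0.42 and 0.42 in the former blocks and -0.33 and -0.43 in the latter. Each interval held 0, except that of 100365001, whose lower end touched 0 (2.56e-05 to 0.84). For the Cdx4 and Chic1 block the change was -0.35 (-0.85 to 0.15). The lower value of the outermost block in control cells was -0.04, with an interval that held 0, after balancing to equal bin totals.

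For Jpx depletion over control on cas, 7 of 55 were higher and 5 lower, against 4.21% and 3.68% of all rectangles (12 either way, against 7.89%). On mus 3 were higher and 5 lower, against 4.21% and 5.26% (8 either way, against 9.47%). Intervals left out 0 in 2 of the 7 and 2 of the 5 on cas, and in 1 of the 3 and 0 of the 5 on mus. The largest were thinly filled: on cas chrX:100215001-100265000 with chrX:101065001-101115000 stood at 0.624 (8 contacts) in control and 1.42 (10 contacts) in depleted cells, and the interval of its ratio of 1.19 (-0.06 to 2.43) held 0. The lowest ratio was as thin, -1.28 (-2.84 to 0.28) for chrX:100365001-100415000 with chrX:101215001-101265000, from 14 contacts to 4. The rectangle of the outermost left block with chrX:101115001-101165000, lower on mus in control cells, was also lower on cas after depletion, at 1.10 (8 contacts) against 2.23, a ratio of -1.02 (-2.01 to -0.03). The rectangle of chrX:100315001-100365000 with chrX:101065001-101115000 went from 0.842 (12 contacts) to 1.72 (23 contacts), a ratio of 1.03 (0.03 to 2.03). Balanced to equal bin totals, 23 of the rectangles passed the fold on cas and 16 on mus, so these counts move with the correction.

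**Figure D5:**
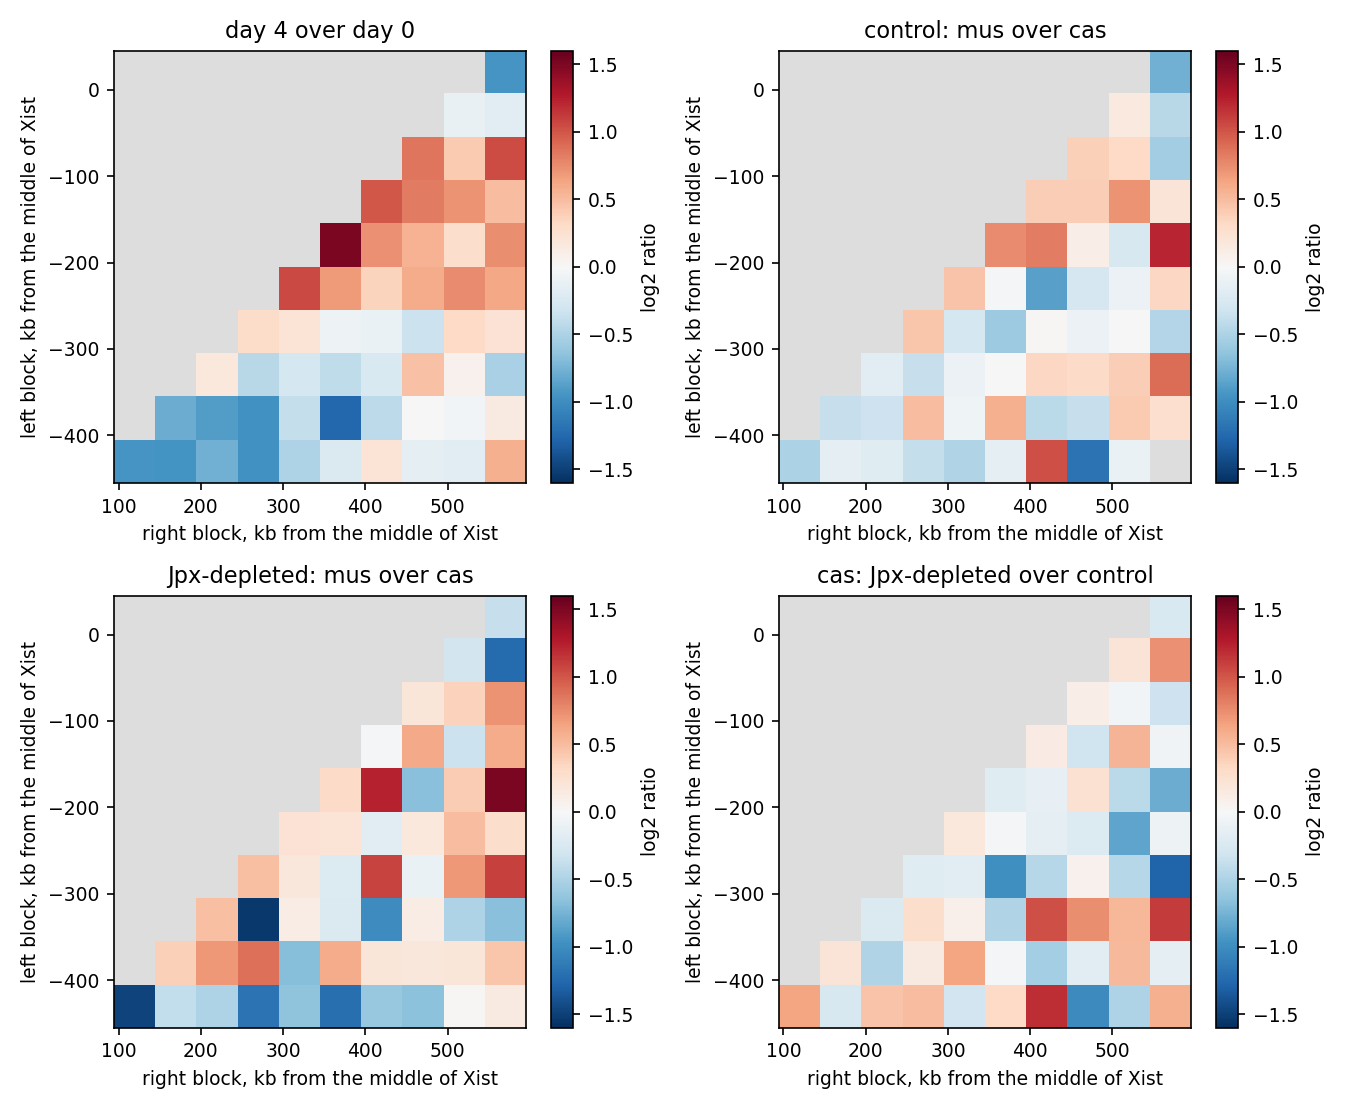
Log2 ratio of relative contact in rectangles of 50 kb by 50 kb with all pairs at 500 kb or more, by distance of the left block (vertical) and the right block (horizontal) from the middle of Xist in kb. Grey marks rectangles outside the set or with under 10 contacts. For day 4 over day 0 the 18 rectangles whose left block lies between 100415001 and 100615000 are all above 0 (red), and those of the outermost left blocks are mostly below (blue). With the same left blocks, 12 of 18 rectangles are above 0 for mus over cas in control cells (median 0.32), 14 of 18 in depleted cells (median 0.30) and 5 of 18 for depletion on cas. In that order, left blocks from 100215001 to 100315000 have 5 of 18, 10 of 19 and 10 of 19 above 0. Those from 100315001 to 100415000 have 8 of 15, 8 of 15 and 7 of 15, and those from 100615001 to 100715000 have 1 of 3, 0 of 3 and 2 of 3.

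An even background would put 27.3% of the signal on the members kept in the maps of all reads, and the measured shares were 0.171 of that at day 0, 0.264 at day 4 and 0.249 at day 7. On the alleles they were 0.216 to 0.286 of it. The highest even background a map could hold was taken from the 50 kb window with the lowest mean signal. It was 5.46% of all signal at day 0 (exact Poisson interval 1.49 to 14.0, from 4 contacts) and 17.3% at day 4 (9.45 to 29.0, from 14 contacts). At day 7 it was 13.2% (6.83 to 23.1, from 12 contacts). On cas it was 7.23% in control and 10.3% in depleted cells, and on mus 15.8% and 18.3%. These limits rest on few contacts, and the intervals of day 0 and day 4 overlap. The window was picked as the lowest in each map and started at 900, 950 or 1000 kb, depending on the map. The intervals do not allow for that choice, which tends to draw the limits down.

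The day 0 map was next mixed with an even background, to set what that alone would give beside the later maps. A mixture with 11.3% even signal (10.1 to 12.5) has the day 4 share at 500 kb or more, and one with 9.38% (8.22 to 10.5) has the day 7 share. The mixture also came close to the slopes. At 500 kb or more it gave -1.24 against -1.2 measured at day 4, and -1.33 against -1.34 at day 7. From 100 kb to just under 500 kb it gave -0.82 against -0.83 at day 4.
The even mixture did not give the measured values by side of the split. For members across the split it gave a slope of -0.78 at day 4, outside the measured -1.09 (-1.27 to -0.91), and -0.83 at day 7 against -1.2 (-1.38 to -1.02). The mixture's slopes carry no interval of their own, so these comparisons use the counting error of the measured map alone. For members wholly on the right it gave a relative contact of 2.02 at day 4, where 1.31 was measured, a log2 ratio of -0.62 (-0.82 to -0.43), and 2.09 at day 7 against 1.36. Over all separations, pairs across the split held 18.1% of the signal at day 4, where the mixture gave 15.2%, and 17.0% at day 7 against 14.5%. With a background in proportion to the bins' totals in place of an even one, 13.6% was needed for day 4 and 11.3% for day 7. Across the split the slopes were then -1.05 at day 4 and -1.07 at day 7, both inside the measured intervals. Over all members they were -1.45 and -1.52, both outside. Members on the right stood at 1.94 and 2.01 in these mixtures. The match of the slopes thus turned with the shape of the background, and which shape holds was not tested.

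For the alleles, cas with 7.02% even signal (4.66 to 9.38) has the long-range share of mus in control cells, and cas with 8.94% (6.43 to 11.4) that of mus in depleted cells. The slopes at 500 kb or more were then -1.15 against the measured -0.63 (-0.92 to -0.34) in control and -1.29 against -0.74 (-1.05 to -0.42) in depleted cells, both outside the measured intervals. For members across the split, the mixture gave -0.87 in control cells, inside the interval of the measured -0.62 (-0.92 to -0.32). In depleted cells it gave -1.15, outside that of the measured -0.72 (-1.04 to -0.40). With a background in proportion to the bins' totals these slopes were -1.04 and -1.34, both outside. Here too the mixture's slopes carry no interval, so inside and outside refer to the counting error of mus alone. Under 50 kb the mixture gave 35.4% of the signal in control cells, where mus held 41.0%. Members wholly on the right stood at 1.08 on control mus, where the mixture gave 1.70, and at 1.07 on depleted mus, where it gave 1.23, a log2 ratio of -0.21 (-0.63 to 0.21). Between depleted and control maps the even signal needed was 1.40% (-0.66 to 3.46) on cas and 0.67% (-2.30 to 3.64) on mus. No map of unligated or randomly ligated DNA was used here, so the level of random ligation in each library was not measured.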

How the data were processed

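The authors deposited 7 symmetric maps of corrected contact signal between 5 kb bins of mm9, made from MboI in situ Hi-C libraries enriched with 1067 probes of 120 bp, per the labels' protocols. HOMER 4.8, Juicer 1.5.3, Novoalign 3.00.02 and cutadapt 1.2.1 are named, with no role, per the submitters' processing notes. The correction, duplicate removal and allele assignment were not given in the sources used here. Each allelic map combined 2 libraries, and the day 7 map was made from control library 1, per the labels.

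Nearly every signal value was a whole contact count over a factor per bin (99.99% to 100% whole, tolerance 0.01). Counting intervals (95%) hold those factors fixed and leave out the spread between libraries and PCR duplicates; shares of contacts were counted directly. The slope was fitted by Poisson likelihood, and contacts varied around it with a Pearson dispersion of 1.27 at day 0 and 0.91 to 1.08 elsewhere. Bins under 0.25 of the median total were left out. The code was tested on simulated counts. Regions named were, per map or comparison, the 3 highest and 3 lowest blocks and rectangles and the 3 highest bins, of which the text gives some; the gene list comes from the GENCODE annotation of mm9, where 1 further gene is not reported here. The members, lists and split were chosen with earlier results of these data known. The 14 alternatives, and 1 added after the values were seen (pairs across the split only), are in the closing section. Python 3.11.15, numpy 2.4.6, scipy 1.17.1 and matplotlib 3.10.9 were used.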

Additional observations from a re-analysis of the deposited data

Results flagged for a closer look

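Of 32 effects of Jpx depletion compared between the alleles (mus minus cas, on the log2 scale), 2 had a 95% counting interval that left out 0, where counting error alone gives about 1 in 20. For the left block from 100365001, which holds Nap1l2, relative long-range contact went from 1.00 to 0.803 on cas and from 0.944 to 1.01 on mus, and the effects differed by 0.42, with an interval whose lower end touches 0 (2.56e-05 to 0.84). For all members across the split, relative contact went from 0.960 to 0.985 on cas and was 0.997 in both mus maps, and the effects differed by -0.035 (-0.068 to -0.0028). The second is the complement of the pairs wholly right of the split, whose own difference was 0.50 (-0.07 to 1.06).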

How the results depend on the processing

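No paired analysis was possible because each group compared is 1 deposited map and no map gives its numbered libraries apart. Day 0 and day 4 have 1 library each, and the day 7 map of all reads holds control library 1 alone. Each allelic map combines both libraries of its cell group. The cas and mus maps of a cell group come from the same libraries, but mus over cas could not be read per library. No library could be left out of a map. Of the main values, 220 kept their side of the interval or the 1.5-fold range under the alternatives. Of the others, 18 counts moved, 7 intervals came to hold 0, 1 no longer held it and 2 values whose main interval left out 0 turned sign. Among the 220, some values changed sign while both intervals held 0. An example is the share ratio for depletion on mus, 0.02 in the main setting and -0.03 from 400 kb on. The log2 ratio of the share ranged from 0.47 to 0.80 for day 4 over day 0, 0.43 to 0.70 for day 7 over day 0, 0.14 to 0.40 for control mus over cas and 0.13 to 0.56 for depleted mus over cas. For day 7 over day 4 it was -0.048 with recovered contacts and -0.019 with only separations of 50 kb or more in the total, and the even signal needed was 0.787% and 0.526%; each interval held 0. The slope differences from day 0 turned to -0.19 (day 4) and -0.37 (day 7) from 600 kb on, and were 0.26 and 0.15 across the split only; that of control mus over cas was 0.72 from 600 kb on, with an interval that held 0, and that of depletion on cas was -0.50 across the split only. The cause was not tested, apart from the loss of the 190 pairs on the right in both settings.
Counts of long-range rectangles past the fold either way, 22, 21, 5, 9, 23, 12 and 8 in the order day 4 over day 0, day 7 over day 0, day 7 over day 4, mus over cas in control and in depleted cells, and depletion on cas and on mus, were 4, 5, 0, 3, 10, 5 and 0 at 2-fold, where the stricter fold itself lowers them. Without the outer 50 kb at each end, which leaves fewer rectangles, the first 6 were 11, 12, 2, 5, 8 and 5. Balanced to equal bin totals, control mus over cas gave 17, depletion on cas 23 and on mus 16. With recovered contacts, depletion on mus gave 13, and with probe bins only, control mus over cas gave 14.
Block ratios that turned sign, where the main interval or that of the alternative left out 0, were these. Changes of sign with both intervals holding 0 are not listed. From 400 kb on, right blocks 100865001 and 100915001 stood at 0.058 and 0.36 for day 4 and at 0.083 and 0.38 for day 7 over day 0, left block 100615001 at 0.19 for day 7 over day 0, right block 100965001 at 0.28 for control mus over cas, right block 100915001 at 0.29 for depleted mus over cas and right block 100715001 at -0.082 for depletion on mus. From 600 kb on, right blocks 100965001, 101015001 and 101065001 stood at -0.31, -0.33 and -0.0067 for day 4 and at -0.47, -0.20 and -0.0046 for day 7 over day 0, and 101165001 at 0.20 for day 7 over day 0. Without the outer 50 kb, right block 100765001 was 0.079 for depleted mus over cas. Depth limits the allelic maps most, where 1365 to 1708 contacts lay at 500 kb or more.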
